A study of Homo sapiens with 3 samples.

Results

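The genes described here are 10 cytosolic and mitochondrial heat shock genes, HSPA1A, HSPA1B, HSPA8, HSPH1, DNAJB1, BAG3, HSPB1, HSP90AA1, HSPD1 and HSPE1. They were taken by gene symbol from a count table of 51136 genes, and each of the 10 was found there. The table holds 3 RNA-seq libraries of PANC-1, an established human pancreatic ductal carcinoma cell line. The control library came from untreated cells, and the labels name no vehicle for it. The Rg3 library came from cells kept for 24 h in 200 μM Rg3, a ginsenoside from ginseng, and the TAM library from cells kept for 24 h in 50 μM tamoxifen (TAM), a selective modulator of the estrogen receptor. Each condition has 1 library, so that no difference has a replicate check and no test between conditions was possible.

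Heat shock proteins are molecular chaperones, which bind unfolded proteins, keep them from aggregating and help them fold. In unstressed cells the transcription factor HSF1 is held inactive by chaperones. When unfolded proteins draw these away, HSF1 forms trimers and binds heat shock elements, inverted repeats of the unit nGAAn, in the promoters of chaperone genes. Cancer cells often depend on high chaperone levels to keep mutated or overproduced client proteins folded.

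Summed over all genes, 11300766 reads were counted for control, 12861693 for Rg3 and 11321442 for TAM. KRT8, a keratin of ductal epithelium, had 15329, 7817 and 14411 reads in these libraries, and KRT18, its partner, had 11216, 7406 and 13162. KRT19 had 665, 290 and 181 reads, KRT7 had 248, 93 and 345, and EPCAM had 26, 26 and 8. The listed acinar and endocrine markers were at 0 in all 3 libraries. Endothelial and fibroblast markers had at most 4 reads each, and of the leukocyte markers PTPRC and CD3E had at most 1 while CD14 had 97, 46 and 37. Levels are given below as CPM, read counts divided by library sizes that TMM scaling sets by the bulk of genes. A log2 ratio compares such levels between 2 libraries, and its 95% interval (exact, Clopper-Pearson) covers counting error only. PCR copies were not marked by molecular identifiers, so that reads are not independent molecules. A gene is said to be past the fold where its ratio was over 1.5 or under 0.67, among genes that reached 10 counts in at least 1 of the libraries compared.

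The promoters of the 10 genes were read first, since the genes were chosen as known HSF1 targets. In the RefSeq windows of GRCh38.p14, the 250 bases before each annotated start were searched on both strands for a pair of inverted units, GAANNTTC or TTCNNGAA. They were also searched for 3 alternating units, GAANNTTCNNGAA or TTCNNGAANNTTC, a match of which holds overlapping pairs. A pair was found for 7 of the 10 genes, against 14.0% of the 27305 genes with a window. The 3 alternating units were found for 3 of the 10 (HSPA8, HSPD1 and HSP90AA1), against 0.557% of all genes. The letters of neither motif are in the 250 bases searched for HSPH1, HSPE1 and BAG3. A match is a description of letters and not a measured binding site. The stretches below run 5′ to 3′ on the strand of the gene, with the matched letters in capitals. They are shown so that the genes can be compared by the element before their start.
HSPA1A: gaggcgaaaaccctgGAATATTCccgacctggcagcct
HSPA1B: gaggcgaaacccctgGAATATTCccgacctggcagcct
HSPA8, distal: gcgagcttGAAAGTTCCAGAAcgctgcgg
HSPA8, proximal: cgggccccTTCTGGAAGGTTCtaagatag
DNAJB1: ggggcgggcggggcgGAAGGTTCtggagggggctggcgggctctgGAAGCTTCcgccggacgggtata
HSPB1: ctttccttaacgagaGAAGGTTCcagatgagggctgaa
HSP90AA1: cTTCCGGAAGGTTCgggaggcTTCTGGAAa
HSPD1: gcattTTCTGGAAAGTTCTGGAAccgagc

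HSPA1A and HSPA1B lie side by side on the plus strand of chromosome 6, and their stretches, at chr6:31815422-31815459 and chr6:31827618-31827655, carry the same 8 matched letters. Those of HSPA8 lie on the minus strand at chr11:123062346-123062374 and chr11:123062171-123062199. The stretch of DNAJB1 is at chr19:14518422-14518489 on the minus strand and that of HSPB1 at chr7:76302476-76302513 on the plus strand. Of 3 windows searched for DNAJB1, 1 held a pair. The stretch of HSP90AA1, at chr14:102087104-102087133 on the minus strand, precedes the downstream of 2 annotated starts, from which its capitals begin 88 bases away. The stretch of HSPD1 is at chr2:197500062-197500090 on the minus strand, in 1 of 2 windows searched for that gene. It lies between the RefSeq start of that window and the RefSeq start of HSPE1, 539 bases apart, from which the genes are transcribed in opposite directions. The GENCODE spans of both genes cover it. The capitals of the stretch are 294 to 311 bases before the RefSeq start of HSPE1 and therefore outside the window searched for HSPE1. The stretches of HSPA8 and HSP90AA1 also fall in annotated GENCODE exons of the same gene, and that of HSPD1 in exons of both HSPD1 and HSPE1. Of the genes without a match, HSPH1 spans 31134974 to 31162388 of chromosome 13 on the minus strand, HSPE1 197499994 to 197503457 of chromosome 2 on the plus strand and BAG3 119651370 to 119677819 of chromosome 10 on the plus strand (GRCh38, GENCODE 29).

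In the Rg3 library, the cytosolic HSP90 gene HSP90AA1, the mitochondrial chaperonin genes HSPD1 and HSPE1, and HSPH1 were higher than in the control library, by 1.74-fold to 2.50-fold. HSPB1 and BAG3 were lower, and the stress-inducible HSP70 genes HSPA1A and HSPA1B were close to the control as counted. In the TAM library, HSPA1A and HSPA8 were the members past the fold, both higher, and HSPD1 had the lowest ratio. The 10 genes together held 0.417% of the reads of the control library, 0.595% of those of Rg3 and 0.469% of those of TAM. Without HSPA8 they summed to 26384 reads in control, 43434 in Rg3 and 24330 in TAM. From control to Rg3, the largest gains in reads were those of HSPA8, HSP90AA1 and HSPD1.

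**Figure D1:**
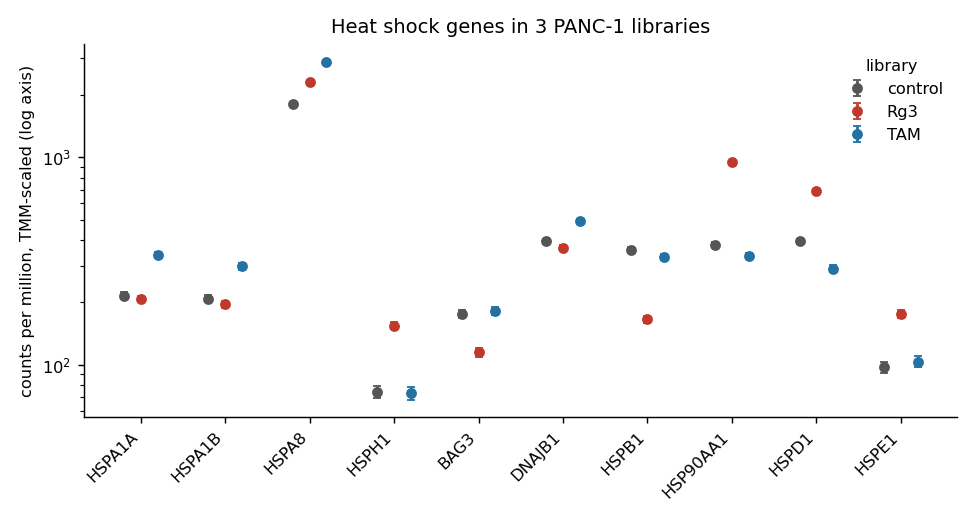
Level of each heat shock gene in CPM after TMM scaling (log axis), with 1 point for each of the control, Rg3 and TAM libraries and bars for the 95% counting interval, mostly smaller than the points. The Rg3 point stands above the others for HSPH1, HSP90AA1, HSPD1 and HSPE1, and below them for BAG3 and HSPB1.

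HSPA1A and HSPA1B encode nearly the same protein, the HSP70 that cells make in response to heat and other stresses. HSPA1A had 2468 reads (215 CPM) in the control library, 2986 (207 CPM) in Rg3 and 3378 (339 CPM) in TAM. HSPA1B had 2391 reads (208 CPM), 2818 (196 CPM) and 2971 (299 CPM). As counted, both were therefore highest with TAM and close to the control with Rg3. The log2 ratio of Rg3 over control was -0.052 (-0.13 to 0.026) for HSPA1A and -0.090 (-0.17 to -0.010) for HSPA1B. On division by library totals both were slightly above 0, at 0.088 and 0.050. With TAM the log2 ratio was 0.66 (0.58 to 0.73) for HSPA1A and 0.52 (0.44 to 0.60) for HSPA1B, of which the former was past the fold. HSPA1A came within the fold for TAM on library totals (0.45) and with trends on GC content and transcript length removed (0.18), as described further on. With the trends removed, the order of the treated libraries turned, Rg3 being at 0.51 for HSPA1A and 0.44 for HSPA1B. TAM was then at 0.18 and 0.067. As 72.6% of the 50-base stretches of the longest HSPA1A transcript recur in HSPA1B, reads could not be split securely between them. Summed, the pair had 4859, 5804 and 6349 reads, with log2 ratios of -0.070 (-0.13 to -0.015) for Rg3 and 0.59 (0.54 to 0.65) for TAM. Stretches of both also recur in AL671762.1, 33.8% for HSPA1A and 35.3% for HSPA1B. Its exons overlap HSPA1B on the same strand, and any reads counted for it are not in the sum.

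HSPA8 is the constitutive cytosolic HSP70, present in unstressed cells, and had the most reads of the 10 genes. It was counted 20774 times in the control library, 33106 times in Rg3 and 28722 times in TAM (1809, 2299 and 2886 CPM). Both treated libraries lay above the control. The log2 ratio was 0.35 (0.32 to 0.37) for Rg3 and 0.67 (0.65 to 0.70) for TAM, and the second was past the fold, though not on library totals (0.46). Small nucleolar RNA genes lie within HSPA8 on the same strand, and their reads may be counted with it.

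HSPH1, an HSP110 protein that exchanges the nucleotide of HSP70 and so releases its client, had the lowest read count in the control library, 849 (73.9 CPM). It had 2226 reads (155 CPM) in Rg3 and 725 (72.8 CPM) in TAM. As counted, the log2 ratio was 1.06 (0.95 to 1.18), 2.09-fold, for Rg3 and -0.022 (-0.17 to 0.12) for TAM. With the trends removed this turned, with 0.36 for Rg3, within the fold, and 0.62 for TAM, past it.

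BAG3, a cofactor that links HSP70 to small heat shock proteins and selective autophagy, was lowest in Rg3. It had 2022 reads (176 CPM) in the control library, 1655 (115 CPM) in Rg3 and 1803 (181 CPM) in TAM. The log2 ratio was -0.62 (-0.71 to -0.52) for Rg3, past the fold, and 0.041 (-0.054 to 0.13) for TAM. The ratio for Rg3 came within the fold on library totals (-0.48) and with the trends removed (-0.15). HSPH1 and BAG3 share no 50-base stretch with another gene.

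DNAJB1 is the main stress-inducible J-domain protein, which delivers clients to HSP70 and stimulates its ATPase. As counted, it was close to the control in Rg3 and somewhat above it in TAM. Its reads numbered 4522 (394 CPM), 5286 (367 CPM) and 4894 (492 CPM) in control, Rg3 and TAM. The log2 ratios of -0.10 (-0.16 to -0.044) for Rg3 and 0.32 (0.26 to 0.38) for TAM were both within the fold. The first turned to 0.039 on library totals. With the trends removed DNAJB1 was at 0.18 for Rg3 and -0.0028 for TAM, so that the order of the treated libraries turned. The exons of DNAJB1 overlap TECR on the other strand, which had 1491, 1191 and 1495 reads, and whether counting used strand is not given in the sources used here.

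HSPB1, the small heat shock protein HSP27, holds unfolded proteins without using ATP. It had 4128 reads (360 CPM) in the control library, 2387 (166 CPM) in Rg3 and 3287 (330 CPM) in TAM, so that the level in Rg3 was the lowest of the 3. The log2 ratio was -1.12 (-1.19 to -1.04) for Rg3, a fold of 0.461, and -0.12 (-0.19 to -0.056) for TAM. HSPB1 was thus furthest below the control in Rg3 of the 10 genes. After trend removal it was at -0.43 for Rg3, within the fold, and at -0.70 for TAM, past it.

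HSP90AA1 encodes the inducible alpha form of cytosolic HSP90, which matures kinases and steroid receptors, the estrogen receptor included. It had 4363 reads (380 CPM) in the control library, 13669 (949 CPM) in Rg3 and 3347 (336 CPM) in TAM. The Rg3 library stood far above the other two. The log2 ratio for Rg3 was 1.32 (1.27 to 1.37), 2.50-fold, and for TAM it was -0.18 (-0.24 to -0.11). HSP90AB1, which encodes the constitutive beta form and was added here after its values were seen, had 25776, 27774 and 25740 reads, with log2 ratios of -0.22 (-0.24 to -0.19) and 0.20 (0.18 to 0.23). Per transcript length, the beta form therefore exceeded the alpha form 7.75-fold in the control library, 2.67-fold in Rg3 and 10.1-fold in TAM. WDR20, whose exons overlap HSP90AA1 on the other strand, had 119, 200 and 118 reads.

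HSPD1 (HSP60) and HSPE1 (HSP10) form the barrel and the lid of the chaperonin that folds proteins in the mitochondrial matrix. HSPD1 had 4526 reads (394 CPM) in the control library, 9876 (686 CPM) in Rg3 and 2896 (291 CPM) in TAM. HSPE1 had 1115 reads (97.1 CPM), 2531 (176 CPM) and 1029 (103 CPM). Both genes were highest with Rg3, by log2 ratios of 0.80 (0.75 to 0.85) and 0.86 (0.75 to 0.96), whose intervals overlap. Without the trends HSPD1 came within the fold, at 0.41, and HSPE1 was at 0.94. With TAM they parted, HSPD1 at -0.44 (-0.51 to -0.37) and HSPE1 at 0.090 (-0.032 to 0.21). Exons of the pair overlap on opposite strands. The readthrough HSPE1-MOB4, which shares 16.0% of the 50-base stretches of HSPE1, had 389, 863 and 406 reads.

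Past the fold in Rg3 over control were 4 of the 10 genes on the higher side (HSPH1, HSPD1, HSPE1 and HSP90AA1) and 2 on the lower side (HSPB1 and BAG3). Of the 16487 genes compared, 25.0% were past the fold on the higher side and 19.3% on the lower side. In TAM over control, 2 were higher (HSPA1A and HSPA8) and 0 lower, beside 17.4% and 23.5% of 16079 genes. Nothing particular to the 10 genes is read from these counts. The median log2 ratio of the 10 genes was 0.15 for Rg3 and 0.066 for TAM, and over all genes compared it was 0.043 and -0.024. Compared with division by library totals, TMM put the log2 ratios of all genes 0.14 lower for Rg3 and 0.21 higher for TAM. On library totals BAG3 came within the fold for Rg3 (-0.48), and no member was past the fold on the higher side for TAM, where HSPA8 was at 0.46 and HSPD1, at -0.65, was past it on the lower side.

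**Figure D2:**
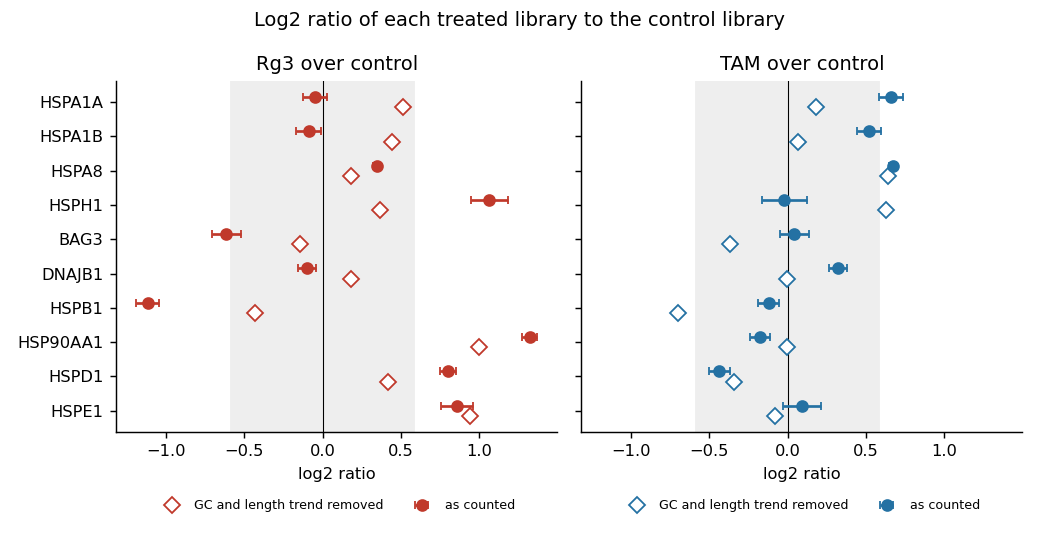
Log2 ratio of the Rg3 library (left) and the TAM library (right) to the control library for each heat shock gene, as filled points with 95% counting intervals and, as open diamonds, after removal of the trends on GC content and length, and the grey band covers ratios within 1.5-fold. HSP90AA1 and HSPE1 stay to the right of the band for Rg3 in both forms, while HSPB1 and BAG3 enter it when the trends are removed.

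Across genes, the ratios followed the base composition of the transcripts, and the heat shock genes differ widely in it. In genes with at least 50 counts, Spearman's rho of the log2 ratio with GC content was -0.81 over 11583 genes for Rg3 and 0.51 over 11022 genes for TAM. These describe genes within a pair of libraries, and genes are not independent replicates. HSPH1 (40.0% GC), HSPD1 (44.2%) and HSP90AA1 (45.2%) are AT-rich, and HSPB1 (64.3%), HSPA1A (59.7%) and BAG3 (56.9%) are GC-rich. In Rg3, 6 of the 10 genes lay above the interquartile range of genes of like GC content (HSPA1A, HSPA1B, HSPH1, HSPD1, HSPE1 and HSP90AA1), 1 below it (HSPB1) and 3 inside it. In TAM, 3 lay above it (HSPA1A, HSPA8 and HSPH1), 1 below it (HSPB1) and 6 inside it. By definition the highest and the lowest quartile of all genes fall outside such a range. HSPA1A and HSPA1B also share reads, and nothing particular to the 10 genes is read from these counts.

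**Figure D3:**
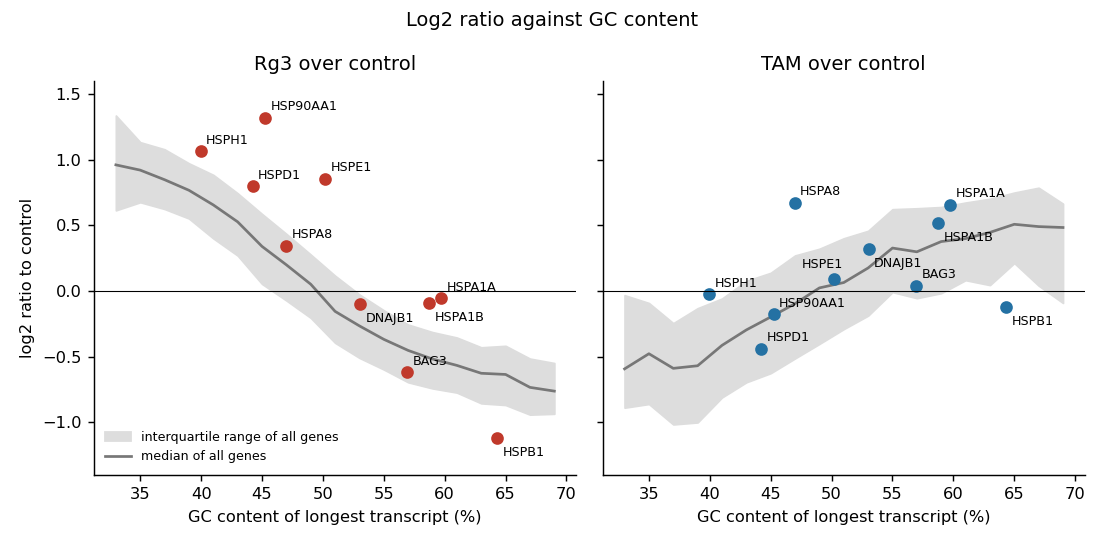
Log2 ratio to the control library against GC content of the longest transcript (%), for Rg3 (left) and TAM (right), with 1 point a heat shock gene and, for all genes with at least 50 counts, the median (line) and interquartile range (band) in bins of GC content. HSP90AA1 and HSPE1 stand well above the band for Rg3, HSPA8 above it for TAM, and HSPB1 below it in both.

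A smooth trend on GC content and then on length was removed to see which ratios remained. For Rg3, HSP90AA1 stayed past the fold at 1.00 and HSPE1 at 0.94, while HSPD1 (0.41), HSPH1 (0.36), HSPB1 (-0.43) and BAG3 (-0.15) came within it. HSPA1A and HSPA1B, close to 0 as counted, were at 0.51 and 0.44. Of all genes with a GC value, 8.64% were then past the fold on the higher side and 10.1% on the lower side, beside 2 and 0 of the 10 genes. For TAM, HSPA8 stayed past the fold at 0.64, HSPH1 came to 0.62 and HSPB1 to -0.70, and HSPA1A came to 0.18. This made 2 higher and 1 lower, beside 13.4% and 15.9% of all genes. A trend on the median GC content and length over all transcripts of a gene, chosen after seeing the data, left HSP90AA1 at 0.75 for Rg3 and put HSPE1 at 0.54, within the fold. HSP90AA1 was the member that stayed past 1.5-fold for Rg3 under both scalings tried in place of TMM and both trend removals. The source of the trends was not tested.

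The treated libraries were also set directly against each other, which does not use the control library that both ratios above share. The agents, doses and targets differ, so that the values are a description. As counted, TAM was over Rg3 past the fold for HSPA1A (log2 ratio 0.71, 0.64 to 0.78), HSPA1B (0.61, 0.53 to 0.68), HSPB1 (0.99, 0.92 to 1.07) and BAG3 (0.66, 0.56 to 0.75). It was under Rg3 for HSPH1 (-1.09, -1.21 to -0.96), HSPD1 (-1.24, -1.30 to -1.18), HSPE1 (-0.77, -0.87 to -0.66) and HSP90AA1 (-1.50, -1.55 to -1.44). These 4 higher and 4 lower stand beside 30.0% and 35.1% of 16493 genes. With the trends removed, the 4 higher ratios changed sign, to between -0.37 and -0.22, and HSPH1 changed sign to 0.28. HSPE1 (-1.02), HSP90AA1 (-0.99) and HSPD1 (-0.74) kept theirs and stayed past the fold, so that 0 were higher and 3 lower beside 19.5% and 18.9% of all genes with a GC value. With median-transcript trends HSPE1 (-0.27) and HSPD1 (-0.51) came within the fold, HSP90AA1 was at -0.59, just past it, and HSPA8 was past it on the higher side at 0.74.

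Several heat shock genes have processed pseudogenes, copies of the spliced transcript whose reads cannot be told securely from those of the gene. Of the 50-base stretches of the longest transcript, 27.2% recur in other genes for HSPE1, 24.8% for HSPD1, 17.5% for HSP90AA1 and 15.4% for HSPA8. These other genes are not all pseudogenes. For HSPE1, 16.0% recur in the readthrough HSPE1-MOB4 and 9.10% in HSPE1P2, its pseudogene with the largest share. HSPD1 has 22 such symbols in the table, with 1236, 2530 and 646 reads in sum, or 27.3%, 25.6% and 22.3% of the reads of HSPD1. Their log2 ratios were 0.71 (0.61 to 0.81) for Rg3 and -0.73 (-0.87 to -0.59) for TAM, of the same sign as those of the gene. The 13 pseudogenes of HSPE1 summed to 418, 797 and 272 reads, with log2 ratios of 0.60 (0.43 to 0.78) and -0.41 (-0.64 to -0.19), where HSPE1 itself was at 0.090 for TAM. The 5 HSP90AA pseudogenes, grouped after their values were seen, had 607, 1932 and 364 reads and ratios of 1.34 (1.21 to 1.48) and -0.53 (-0.72 to -0.34). The 18 pseudogenes of HSPA8, with 1175, 1415 and 1079 reads, were at -0.059 (-0.17 to 0.054) and 0.083 (-0.037 to 0.20), below the gene in both. The 2 of HSPB1, with 305, 251 and 293 reads, were at -0.61 (-0.85 to -0.36) for Rg3 and 0.15 (-0.088 to 0.38) for TAM. Adding pseudogene and readthrough reads to their genes left these 5 genes on their side of the fold, and the summed HSPA1 pair was past it for TAM, where HSPA1B alone was not.

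**Figure D4:**
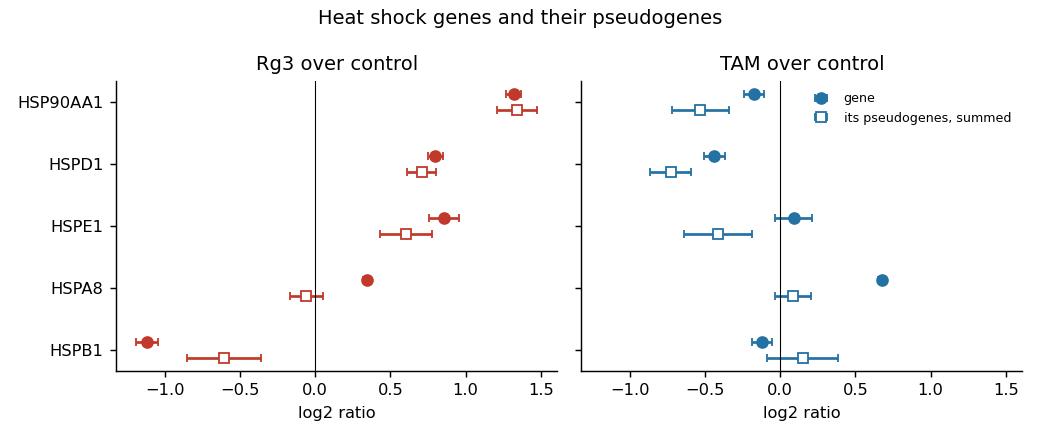
Log2 ratio to the control library for Rg3 (left) and TAM (right) of heat shock genes (filled points) and of their pseudogenes summed (open squares), with 95% counting intervals. Gene and pseudogenes lie close together for HSP90AA1 and HSPD1 with Rg3, and HSPA8 lies above its pseudogenes with both agents.

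Levels were compared between genes per transcript length, as reads per base of the longest transcript scaled to the same sum in each library over 30962 genes. In the control library the order from the highest was HSPA8 (1711), HSPB1 (576), DNAJB1 (405), HSPD1 (374), HSP90AA1 (252), HSPE1 (238), HSPA1A (202), HSPA1B (192), BAG3 (160) and HSPH1 (33.2). Of these neighbours, HSP90AA1 and HSPE1, and HSPA1A and HSPA1B, did not differ beyond their counting intervals. The intervals leave out the choice of transcript, on which the order also rests. The longest transcript of HSPE1 has 950 bases against a median of 570 over its transcripts, and that of HSPB1 1455 against 909. In Rg3, HSPD1 (723) and HSP90AA1 (700.0) came next after HSPA8 (2416) with overlapping intervals, and HSPE1 (479) followed, while HSPB1 (295) was below DNAJB1 (420). In TAM the order after HSPA8 (2181) was HSPB1 (423) and DNAJB1 (404), whose intervals overlap, then HSPA1A (254), with HSP90AA1 at 178. HSPH1 was the lowest in each library, at 77.1 in Rg3 and 26.1 in TAM. In bulk cells, a change in the share of cells with a transcript and a change per cell cannot be told apart.

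The wider chaperone network was described with 11 lists holding 85 genes, of which 77 had enough counts to be compared for Rg3 and 79 for TAM. For Rg3, 22 were higher past the fold and 9 lower, beside the same 25.0% and 19.3% of all genes. For TAM, 13 were higher and 9 lower, beside 17.4% and 23.5%. The median log2 ratio was 0.28 for Rg3 and 0.22 for TAM. After trend removal, 6 were higher and 4 lower for Rg3 (median 0.076), and 14 higher and 3 lower for TAM (median 0.18). The shares over all genes were then 8.64% and 10.1% for Rg3 and 13.4% and 15.9% for TAM.

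HSF1 itself had 900, 826 and 1149 reads in control, Rg3 and TAM, at log2 ratios of -0.45 and 0.56, both within the fold. With the trends removed HSF1 was at 0.22 for Rg3, a change of sign, and at 0.12 for TAM. HSF2, a related factor, had 131, 329 and 103 reads, at 1.00 and -0.14, and HSBP1, which binds HSF1 trimers, was at 0.65 and 0.46. Of the 4 genes listed with the heat shock factors, 2 were higher for Rg3, the factor HSF2 and the binding protein HSBP1. HSF4 was the 1 that was lower, with 37, 22 and 27 reads, while 0 of the list were past the fold for TAM. Without the trends 0 were past it for Rg3, and for TAM HSBP1 was higher (1.13) and HSF4 lower (-0.83). The value of HSBP1 rests on a longest transcript of 8784 bases. Of the other HSP70 family genes, 4 of 8 were higher for Rg3 and 3 lower, among them HSPA4L (1.57), a relative of HSPH1, and HSPA13 (1.47) above, and HSPA2 (-1.26) and HSPA1L (-0.80) below. HSPA6, a strictly stress-inducible HSP70 with few reads, had 20, 16 and 45, with log2 ratios of -0.65 (-1.69 to 0.37) for Rg3 and 1.38 (0.59 to 2.21) for TAM. With the trends removed, HSPA4L (0.78) stayed higher and HSPA2 (-1.70) and HSPA1L (-0.75) lower for Rg3, HSPA13 came within the fold at 0.55, and HSPA6 was at 0.91 for TAM. For TAM, 2 of 9 genes of this list were higher, HSPA6 and its close relative HSPA7, and 2 lower, HSPA12A (-0.78) and HSPA4L (-0.59). HSPA7 had only 5, 4 and 13 reads, with a wide interval for TAM (1.58, 0.0051 to 3.43). After trend removal 3 genes of the list were higher for TAM and 0 lower. Among J-domain genes, 3 of 8 were higher for Rg3 and 0 lower, with DNAJB4 at 1.78 and DNAJB6 at 0.78. Without the trends these were at 0.81 and 1.14. For TAM, 1 of 8 was higher, DNAJB2 at 0.86, or 0.64 with the trends removed.

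Nucleotide exchange and other HSP70 cofactors were split, with 3 of 9 higher for Rg3, BAG4 (1.08) and BAG2 (0.71) leading, and 1 lower, STUB1 (-0.59), a ubiquitin ligase that marks chaperone clients. For TAM, HSPBP1 and STUB1 were both at 0.82 and BAG5 at -0.90. With the trends removed 0 of the 9 were past the fold for Rg3, where BAG4 was at 0.38, and BAG2 and STUB1 changed sign to -0.13 and 0.11. For TAM, BAG4 (0.79 as counted) was then at 1.34, BAG2 came past the fold at 1.11, and HSPBP1 and STUB1, both at 0.22, and BAG5, at -0.43, came within the fold. Among HSP90 and its cochaperones, 2 of 10 were higher for Rg3, CHORDC1 (0.92) and PTGES3 (0.60), and with the trends removed 0 were, CHORDC1 at 0.00 and PTGES3 at 0.11. FKBP5, an HSP90 cochaperone of steroid receptors, had 303, 526 and 116 reads and was the lowest of this list for TAM, at -1.18. PPID (-0.61) was also lower for TAM, and CACYBP (0.64) was higher. After trend removal, FKBP5 (-0.43) and PPID (-0.47) came within the fold and CACYBP was at 1.03. In the cytosolic chaperonin TRiC, 3 of 8 subunits were higher for Rg3, CCT8 (1.00) and CCT2 (0.73) leading, and 1 for TAM, CCT2 (0.66). Of the 6 prefoldin subunits, which hand clients to TRiC, 1 was higher in each, VBP1 (1.12) for Rg3 and PFDN2 (0.62) for TAM. Without the trends 0 TRiC or prefoldin genes were past the fold for Rg3, with CCT8 at 0.53, CCT2 at 0.47 and VBP1 at 0.37. For TAM, CCT2 stayed at 0.65, VBP1 (0.79) and PFDN4 (0.84) came past the fold and PFDN2 within it at 0.34.

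Of the 12 other mitochondrial chaperones and proteases, 2 were higher for Rg3, YME1L1 (0.85) and GRPEL2 (0.84), and 2 lower, TRAP1 (-0.80), the mitochondrial HSP90, and LONP1 (-0.77), a matrix protease. HSPA9, the mitochondrial HSP70, had 4072, 7498 and 2712 reads, at 0.55 for Rg3 and -0.38 for TAM, within the fold in both. For TAM the extremes of this list were HTRA2 (0.72) and CLPP (0.69) above and CLPX (-0.74) and YME1L1 (-0.71) below. With the trends removed 0 of the 12 were past the fold for Rg3, with YME1L1 at 0.18, GRPEL2 at 0.084, TRAP1 at -0.37 and LONP1 at -0.13, and 0 were past it for TAM. Of 15 further HSF1 targets compared for Rg3, 4 were higher and 3 lower, with DNAJB4 at the top and SERPINH1, the collagen chaperone, at the bottom (1910, 920 and 1840 reads, log2 ratio -1.38, or -0.95 with the trends removed). Of the 6 counterparts in the endoplasmic reticulum, 1 was higher for Rg3, DNAJB9 (1.39, or 0.74 with the trends removed). HSP90B1, the HSP90 of that compartment, had 2760, 4987 and 1146 reads, at 0.53 for Rg3 and -1.06 for TAM, and at -0.73 for TAM with the trends removed. Of 3 genes with HSPB symbols listed with the small heat shock proteins and compared for Rg3, 1 was higher, HSPB11 (0.70). A symbol alone does not make HSPB11 a small heat shock protein. HSPB7, with 11, 5 and 2 reads, was the 1 that was lower.

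**Figure D5:**
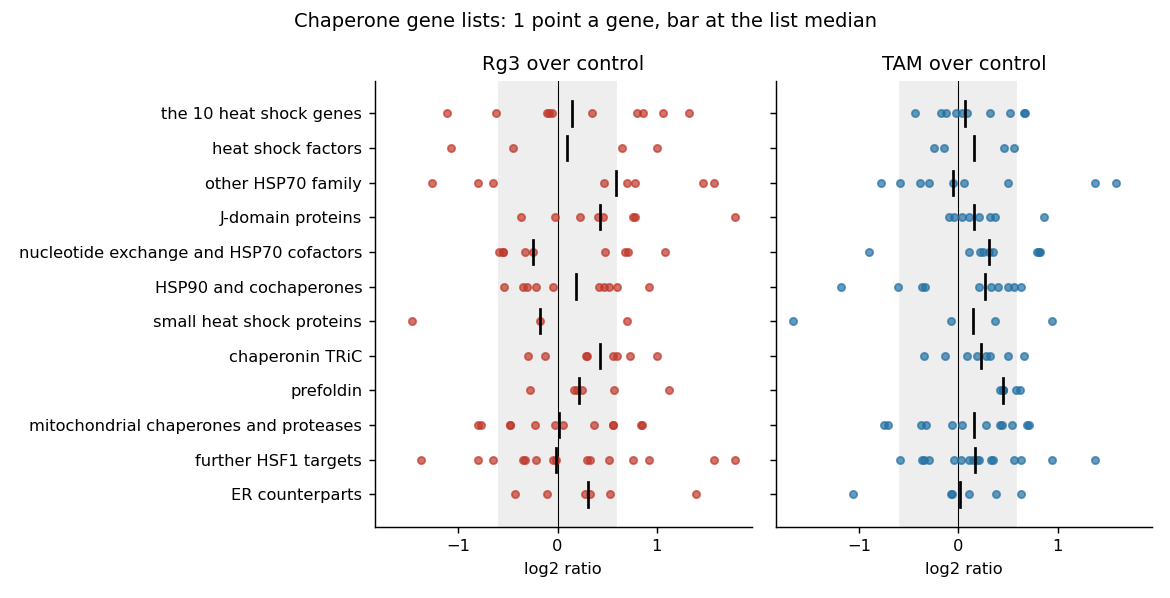
Log2 ratio to the control library for Rg3 (left) and TAM (right) of each gene of the chaperone lists (points), with the list median as a bar and ratios within 1.5-fold in grey. Points of most lists fall on both sides of 0 in each library, and a gene of more than 1 list is drawn in each.

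HSP90AA1 had the largest absolute log2 ratio of the 10 genes, and the genes nearest to it in both ratios were sought among 8425 genes with at least 100 counts in each library. BRCC3 (distance 0.025, log2 ratios 1.30 and -0.17), TXNRD1 (0.037, 1.29 and -0.16), SAR1B (0.051), TWF1P1 (0.12) and TXNDC9 (0.12) were the closest. TXNRD1, the cytosolic thioredoxin reductase, had 1575, 4826 and 1224 reads. These 5 genes have a GC content of 39.0% to 44.8%, near or below that of HSP90AA1. The likeness rests on 2 ratios that share 1 control library, and it is a description.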

How the data were processed

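PANC-1 RNA-seq libraries were taken for control, Rg3 and TAM, 1 each, grouped by their labels. The authors deposited raw read counts per gene symbol. The methods name FAST-QC, TopHat and MAQ, and the submitters' processing notes name GRCh38; the counting tool, annotation and use of strand are not given in the sources used here. The 10 genes and the lists were chosen with earlier results of these data known.

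From the deposited counts, log2 ratios were computed in Python 3.11.15 with TMM sizes (edgeR 4.0.16, R 4.3.3; factors 1.02, 1.12 and 0.879) and exact intervals (scipy 1.17.1). Counts under 3 were raised to 3. Without replicates, the Limma test named in the methods could not be run. GC content and length came from the longest GENCODE 29 transcript (86.6% and 87.2% of genes compared for Rg3 and TAM), and loess trends had a span of 0.3 (statsmodels 0.14.6). Alternatives were library totals, DESeq2 1.42.0 size factors, trend removal, pseudogene reads added, filters of 1 and 100 counts and a fold of 2. After seeing the data, 2 more were added, median-transcript trends and HSP90AA pseudogene reads. Named list genes were up to 2 highest and 2 lowest ratios with at least 50 counts. Some of these are left out of the text, and HSF4, HSPA6, HSPA7, HSPA9 and HSPB7 were named outside this rule, after their values were seen. The steps were tested on simulated data.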

Additional observations from a re-analysis of the deposited data

How the results depend on the processing

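No paired analysis was possible because there was 1 library of each condition, and no replicate could be left out. With DESeq2 size factors, filters of 1 or 100 counts or pseudogene reads added, the counts of members past the fold stayed within 1.5 times those reported. On library totals, Rg3 had 1 member lower, TAM 0 higher and 1 lower, and TAM over Rg3 1 higher. With the GC and length trends removed, Rg3 had 2 higher and 0 lower, TAM 1 lower, and TAM over Rg3 0 higher. With median-transcript trends, Rg3 had 1 higher and 0 lower, TAM 1 lower, and TAM over Rg3 1 higher and 1 lower. The share over all genes was not counted with median-transcript trends, so nothing is read from these member counts. At a fold of 2, Rg3 had 2 higher and 1 lower, TAM 0 higher, and TAM over Rg3 0 higher. That fold left 1470 higher and 1149 lower of all 16487 genes compared for Rg3. It left 862 and 1824 of 16079 for TAM, and 2781 and 3998 of 16493 for TAM over Rg3. TAM over Rg3 changed sign on trend removal for HSPA1A (-0.32, and -0.019 with median-transcript trends), HSPA1B (-0.37 and -0.037) and HSPH1 (0.28 and 0.52). It also changed sign for HSPB1 (-0.27 and -0.14), BAG3 (-0.22 and -0.13) and DNAJB1 (-0.15 and -0.093), the last from 0.42 as counted. The cause was not tested.

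Of the listed genes, library totals left 6 higher for TAM and 12 for TAM over Rg3. As counted, TAM over Rg3 had 22 listed genes higher and 24 lower, beside 30.0% and 35.1% of all genes. Trend removal left 6 higher and 4 lower for Rg3, 3 lower for TAM and 5 lower for TAM over Rg3. A fold of 2 left 7 and 4 for Rg3, 2 and 3 for TAM, and 12 and 13 for TAM over Rg3. The counts over all genes at that fold are given above. On library totals the split over all genes was 5180 higher and 2279 lower for Rg3 (4122 and 3178 with TMM), 1576 and 5234 for TAM (2799 and 3781), and 3105 and 7466 for TAM over Rg3 (4950 and 5793). At the depths here, counting error was small for the 10 genes, and variation between cultures was not measured.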
